A study of Homo sapiens with 15 samples.

Results

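The 40 genes described here drive the cell division cycle. The 20 replication genes act at the start of S phase, when DNA is copied, and the 20 mitotic genes act from late S phase to the separation of the daughter cells. Members were taken by symbol from a written list of names, and all 40 were present in both expression tables, which held 16296 genes for CAKi-1 and 16188 for 786O. In dividing cells the MCM2-7 ring is loaded onto origins with CDC6 and CDT1, and cyclin E with CDC45 and the GINS complex turns it into an active helicase. E2F factors, held back by the RB family, switch these genes on, whereas the mitotic genes are switched on later by FOXM1, B-MYB and the MuvB core. Because only cycling cells make much of these mRNAs, the genes are widely read as markers of growth in cultured tumor cells.

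RNA-seq was performed on 15 libraries of 2 human clear cell renal cell carcinoma (ccRCC) lines, CAKi-1, which has WT *VHL*, and 786O, which has mutant *VHL*. The question was how loss of *ANGPTL4*, a secreted inhibitor of lipoprotein lipase, changes the transcriptome. Untreated cells of both genotypes were harvested in log phase at about 70% confluency, after growth in serum-supplemented medium. CAKi-1 gave 4 WT and 5 *ANGPTL4* knockout (A4KO) libraries, and 786O gave 3 of each. A4KO cells were mixtures of CRISPR clones that had lost *ANGPTL4* mRNA, 786O WT cells were mixtures of clones that had kept it, and the study's methods give parental cells as the CAKi-1 WT control, although the series text describes pooled clones for WT. A difference between A4KO and WT therefore also holds whatever else separates these clone mixtures from their controls. The labels do not say whether replicates came from separate cultures, so p-values measure the spread between these libraries only. In bulk RNA, fewer cycling cells and less of an mRNA per cycling cell cannot be told apart.

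*ANGPTL4* was checked first. In CAKi-1 it stood at 74.9, 83.2, 86.9 and 71.7 TPM (a gene's transcripts as a length-corrected share of the library) in the WT libraries and at 7.26, 2.87, 2.87, 6.47 and 2.90 TPM in A4KO replicates 1 to 5. In 786O the WT libraries held 20.6, 17.6 and 18.1 TPM and the A4KO libraries 2.19, 2.17 and 1.86 TPM, so no library went against its label. CAKi-1 A4KO replicates 1 and 4 stood apart from replicates 2, 3 and 5, in *ANGPTL4* and across the transcriptome. Over 8413 genes of at least 10 TPM, the median absolute log2 difference was 0.0671 between replicates 1 and 4 and between 0.0735 and 0.0905 within the other trio. Between the 2 sets it was between 0.195 and 0.222, whereas WT pairs of CAKi-1 differed by 0.0622 to 0.0969 and 786O pairs by 0.0531 to 0.0669. The renal markers *PAX8*, *KRT8* and *KRT18* were above 140 TPM in all 15 libraries, but the keratins differed widely in CAKi-1. *KRT8* was 1702, 1643, 1486 and 1223 TPM in WT and 265, 493, 566, 305 and 498 TPM in A4KO, lowest in replicates 1 and 4, and *KRT18* had the same order (log2 fold changes -1.88 and -1.57). In CAKi-1 5 renal markers were measured, of which 2 fell, 2 rose and 1 did not pass, and their sum was 2191 to 3030.4 TPM in WT, 746 and 799 TPM in A4KO replicates 1 and 4 and 1072 to 1194 TPM in the other 3. In 786O 4 of 6 fell and 2 rose, with sums of 1319 to 1326 TPM in WT and 947 to 956 TPM in A4KO. The leukocyte marker *PTPRC* was at most 0.541 TPM, and the endothelial gene *CDH5* was in neither table. The summed level of *PTPRC*, *PECAM1*, *COL1A1* and *PDGFRB* was 20.9 to 29.8 TPM in CAKi-1 WT and 49.0 to 74.1 TPM in CAKi-1 A4KO, highest in replicates 1 and 4, against 4.46 to 6.47 and 8.48 to 10.8 TPM in 786O. Of these 4 genes 2 rose and 2 did not pass in CAKi-1, and in 786O 1 rose, 1 fell and 2 did not pass. The part of these marker levels in the results below was not tested.

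The promoters of the 2 groups differ in the short motifs they hold. The E2F motif was searched as TTGGCGC or TTCCCGC, the cell cycle genes homology region (CHR), which the MuvB core binds, as TTTGAA, and the CCAAT box as CCAAT, each on both strands of the 250 bases before the RefSeq start (GRCh38.p14). The promoter table held 17 of the 20 replication genes and 16 of the 20 mitotic genes. The E2F motif was present in 11 of the 17 replication promoters (64.7%) and in 2 of the 16 mitotic promoters (12.5%), against 9.4% of all 27305 promoters in the table. The CHR motif had the opposite distribution, with 1 of 17 replication genes (5.88%), 9 of 16 mitotic genes (56.2%) and 16.1% of all genes. CCAAT was frequent in both groups, in 12 of 17 (70.6%) and 14 of 16 (87.5%), against 37.0% of all. A match is a string of letters and not a shown binding site. Within 100 bases of the start, 8 replication and 8 mitotic genes held the motif of their group. These 100 bases are printed for some of them, taken from a chosen list and without an overlapping annotated exon. Each is read 5′ to 3′ along the gene's strand, with the motif of its group in capitals. The replication promoters are those of *GINS2* (chr16:85688955-85689054, minus strand), *E2F1* (chr20:33686386-33686485, minus strand), *CDT1* (chr16:88803689-88803788, plus strand) and *MCM6* (chr2:135876444-135876543, minus strand), with the E2F motif in capitals, read as its reverse complement in *GINS2* and *CDT1*.
GINS2: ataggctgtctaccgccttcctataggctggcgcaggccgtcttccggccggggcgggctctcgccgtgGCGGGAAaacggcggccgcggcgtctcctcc
E2F1: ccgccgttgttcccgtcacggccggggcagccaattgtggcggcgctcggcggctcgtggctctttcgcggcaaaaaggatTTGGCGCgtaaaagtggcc
CDT1: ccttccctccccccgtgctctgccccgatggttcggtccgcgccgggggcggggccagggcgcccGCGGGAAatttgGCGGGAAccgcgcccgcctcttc
MCM6: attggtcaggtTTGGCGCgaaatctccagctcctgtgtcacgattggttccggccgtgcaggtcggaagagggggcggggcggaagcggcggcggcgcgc
The mitotic promoters are those of *MKI67* (chr10:128126424-128126523, minus strand), *KIF11* (chr10:92593030-92593129, plus strand) and *CDC20* (chr1:43358881-43358980, plus strand), with TTTGAA, or its reverse complement in *KIF11*, in capitals.
MKI67: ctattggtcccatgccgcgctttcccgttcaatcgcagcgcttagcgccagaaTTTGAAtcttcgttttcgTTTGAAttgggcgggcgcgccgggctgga
KIF11: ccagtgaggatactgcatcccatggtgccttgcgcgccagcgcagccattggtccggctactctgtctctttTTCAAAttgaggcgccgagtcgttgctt
CDC20: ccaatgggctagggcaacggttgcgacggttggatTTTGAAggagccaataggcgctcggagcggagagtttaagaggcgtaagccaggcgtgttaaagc
*CDT1* holds 2 E2F motifs and *MKI67* 2 CHR motifs within this window, and the other 5 hold 1 each.

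In CAKi-1 all 40 genes had lower estimates in A4KO cells, and most mitotic genes but fewer of the replication genes passed the test. Of the 20 replication genes, 6 fell, 0 rose and 14 did not pass, and of the 20 mitotic genes 16 fell, 0 rose and 4 did not pass. A gene passed at a limma adjusted p of at most 0.05 over all genes of the line, and 21.1% of all genes fell and 17.9% rose by that rule. The median log2 fold change, the difference between the A4KO and WT means of log2(TPM + 1), was -0.55 over the replication genes and -0.70 over the mitotic genes, against -0.0078 over all 16296 genes. None reached an absolute log2 fold change of 1, which 3.33% of all genes reached in either direction while passing. Every A4KO library was below every WT library for 10 replication and 16 mitotic genes, against 19.8% of all genes. For these 26 genes the exact two-sided permutation p, not adjusted, lay between 0.00794, the smallest that 4 against 5 libraries can give, and 0.0476. A low p follows in large part from picking genes without overlap, so it adds no separate support. For the genes with overlap the same test gave p between 0.0635 and 0.865. The A4KO libraries were unequal, and the median coefficient of variation over the 40 genes was 27.8% in A4KO against 3.52% in WT. The counts depended on single libraries: without WT replicate 3, 3 replication and 9 mitotic genes fell, without WT replicate 2, 4 and 10, and without A4KO replicate 5, 10 and 17. When each gene was instead read against its chromosomal neighbours, 25 on either side, whose median was subtracted in each library (neighbour centring), 3 replication and 18 mitotic genes fell, against 17.4% of all genes (20.8% rose). In that setting *RRM1* (limma adjusted p = 0.131), *CDT1* (0.131), *GINS2* (0.123), *FEN1* (0.0682) and *FOXM1* (0.0588) no longer passed, and *CDC6*, *CCNB2*, *BUB1B* and *CDC20* did.

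**Figure D1:**
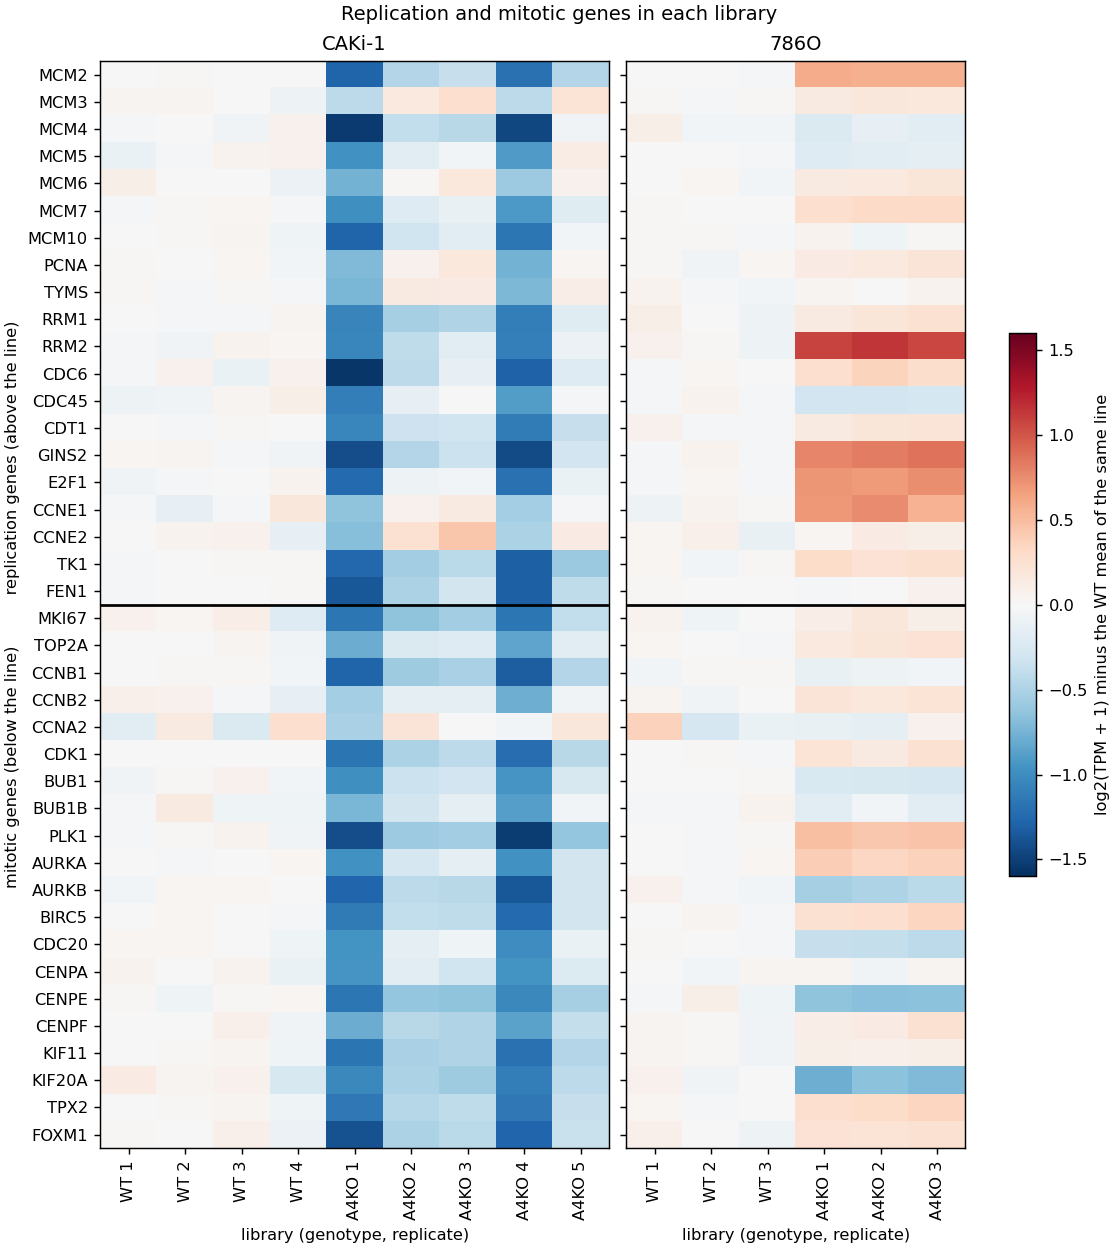
Heat map of log2(TPM + 1) minus the WT mean of the same line for the 40 genes (rows, replication genes above the line and mitotic genes below) in the 15 libraries (columns). In CAKi-1 the columns of A4KO replicates 1 and 4 are the darkest blue, with list medians of -1.05 and -1.10 for replication genes, whereas the 786O A4KO columns hold both red and blue rows.

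Among the origin licensing genes, which load the helicase in G1, *MCM2* and *CDT1* passed in CAKi-1, and every member was lowest in A4KO replicates 1 and 4. *MCM2* was 99.1, 101, 98.9 and 99.0 TPM in the WT libraries and 40.3, 71.6, 76.7, 43.0 and 71.6 TPM in A4KO replicates 1 to 5. It fell by 0.76 ± 0.20 (SE) on the log2 scale (limma adjusted p = 0.0144). All A4KO values were below WT, with replicates 1 and 4 lowest. *MCM5* was 50.1, 53.2, 56.0 and 56.3 TPM in WT and 27.0, 47.6, 52.1, 28.2 and 58.4 TPM in A4KO. The groups overlapped, with replicate 5 above every WT library and replicate 3 above the lowest, and its log2 fold change was -0.40 ± 0.23 (SE) (limma adjusted p = 0.198). The other ring subunits *MCM3*, *MCM4*, *MCM6* and *MCM7*, and *MCM10*, which helps to fire the helicase, did not pass either, with log2 fold changes of -0.041, -0.77, -0.21, -0.48 and -0.60. *CDC6*, a loader of the ring, was 42.6, 45.9, 40.6 and 46.1 TPM in WT and 14.2, 32.4, 39.7, 17.2 and 37.9 TPM in A4KO. Its A4KO range was wide, from 14.2 TPM to just under the lowest WT library, and the log2 fold change of -0.72 ± 0.29 (SE) did not pass (limma adjusted p = 0.078). *CDT1*, the other loader, was 37.5, 37.2, 38.2 and 37.7 TPM in WT and 17.7, 29.7, 30.0, 16.8 and 28.9 TPM in A4KO and fell, with a log2 fold change of -0.64 ± 0.18 (SE) (limma adjusted p = 0.0215). Its WT values were nearly equal, and all 5 A4KO values were below them.

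At the replication fork, *GINS2*, a subunit of the active helicase, was 35.2, 35.6, 34.0 and 33.0 TPM in WT and 12.2, 24.6, 27.0, 12.2 and 27.6 TPM in A4KO. It fell, with a log2 fold change of -0.79 ± 0.26 (SE) (limma adjusted p = 0.0363), and replicates 1 and 4 held about as much as each other. *FEN1*, which trims Okazaki fragments, was 102, 103, 102 and 104 TPM in WT and 39.6, 71.9, 83.3, 40.9 and 76.9 TPM in A4KO, a log2 fold change of -0.77 ± 0.23 (SE) (limma adjusted p = 0.0242). *PCNA*, the sliding clamp, did not pass. Its WT libraries held 151, 148, 152 and 145 TPM and its A4KO libraries 90.6, 156, 167, 87.9 and 152 TPM, so that replicates 1 and 4 were below WT and the other 3 were level with WT or above it (log2 fold change -0.24 ± 0.20 (SE), limma adjusted p = 0.381). *CDC45* was lower by a log2 fold change of -0.43 that did not pass.

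The nucleotide supply genes were split in the same way. *TK1*, thymidine kinase, was the highest of the 40 in CAKi-1 WT, at 489.8, 495, 506 and 505 TPM, and was 208, 339, 369, 200.5 and 331 TPM in A4KO. It had the largest fall of the replication genes, a log2 fold change of -0.83 ± 0.19 (SE) (limma adjusted p = 0.00755). *RRM1*, the large subunit of ribonucleotide reductase, was 116, 114, 113 and 119 TPM in WT and 55.0, 79.2, 82.1, 53.2 and 101 TPM in A4KO and fell by 0.67 ± 0.18 (SE) on the log2 scale (limma adjusted p = 0.0149). *RRM2*, the small subunit, was 127, 126, 136 and 133 TPM in WT and 62.8, 98.4, 117, 60.8 and 123 TPM in A4KO. Its A4KO values were all below WT, but the spread left the log2 fold change of -0.56 ± 0.21 (SE) short of the threshold (limma adjusted p = 0.0654). *TYMS*, thymidylate synthase, was 234, 227, 233 and 228 TPM in WT and 138, 254, 252, 139 and 249 TPM in A4KO. Replicates 2, 3 and 5 were above every WT library and replicates 1 and 4 far below (log2 fold change -0.22 ± 0.21 (SE), limma adjusted p = 0.448).

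*E2F1*, *CCNE1* and *CCNE2*, the G1/S regulators among the 40 genes, did not pass in CAKi-1. *E2F1*, the transcription factor, was 25.1, 25.6, 26.2 and 27.2 TPM in WT and 10.4, 24.6, 25.1, 10.8 and 24.1 TPM in A4KO (log2 fold change -0.53 ± 0.28 (SE), limma adjusted p = 0.157). *CCNE1*, cyclin E1, was 19.2, 17.8, 19.1 and 22.3 TPM in WT and 12.1, 20.5, 21.6, 13.0 and 19.3 TPM in A4KO (log2 fold change -0.20 ± 0.17 (SE), limma adjusted p = 0.394). *CCNE2*, cyclin E2, was 9.05, 9.47, 9.57 and 8.13 TPM in WT and 5.26, 10.8, 12.7, 6.08 and 10.0 TPM in A4KO (log2 fold change -0.073 ± 0.22 (SE), limma adjusted p = 0.823). In all 3 genes replicates 1 and 4 were below every WT library, and for *CCNE2* the other A4KO replicates were above every WT library.

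Of the mitotic genes in CAKi-1, 16 fell. *MKI67*, the proliferation antigen Ki-67, was 63.6, 62.0, 65.3 and 52.5 TPM in WT and 26.7, 38.5, 41.1, 26.6 and 45.9 TPM in A4KO, a log2 fold change of -0.78 ± 0.17 (SE) (limma adjusted p = 0.00604). *TOP2A*, the topoisomerase that untangles sister chromatids, was 147, 146, 151 and 141 TPM in WT and 83.7, 124, 126, 81.2 and 129 TPM in A4KO, with a smaller fall of 0.45 ± 0.15 (SE) (limma adjusted p = 0.0414). For both genes every A4KO library was below every WT library. Of the mitotic cyclins and their kinase, *CCNB1* was 251, 256, 256 and 245 TPM in WT and 103, 170.0, 175, 101 and 181 TPM in A4KO (log2 fold change -0.83 ± 0.19 (SE), limma adjusted p = 0.00831). *CDK1*, its partner, was 153, 152, 152 and 151 TPM in WT and 66.7, 107, 113, 64.6 and 111 TPM in A4KO (log2 fold change -0.75 ± 0.18 (SE), limma adjusted p = 0.0103). The WT values of *CDK1* were nearly equal, and even the highest A4KO value was far below them. *CCNB2* (log2 fold change -0.34) and *CCNA2* (-0.032) did not pass.

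Kinases of the spindle and their partners fell as well. *PLK1*, the polo-like kinase, was 146, 149.9, 155 and 143 TPM in WT and 54.7, 99.0, 100.1, 51.3 and 96.6 TPM in A4KO. Its log2 fold change of -0.94 ± 0.22 (SE) was the largest of the 40 in CAKi-1 (limma adjusted p = 0.00827). *AURKA*, the spindle pole kinase, was 95.1, 93.9, 96.2 and 97.8 TPM in WT and 48.4, 79.1, 87.0, 48.6 and 78.1 TPM in A4KO (log2 fold change -0.53 ± 0.18 (SE), limma adjusted p = 0.0456), and its activator *TPX2* was 124, 125, 128 and 117 TPM in WT and 55.1, 89.5, 93.1, 55.1 and 95.1 TPM in A4KO (log2 fold change -0.71 ± 0.18 (SE), limma adjusted p = 0.0139). *AURKB* and *BIRC5*, which act together at the inner centromere, were both lower. *AURKB* was 117, 124, 123 and 119.8 TPM in WT and 49.6, 90.2, 88.8, 46.6 and 98.2 TPM in A4KO (log2 fold change -0.76 ± 0.23 (SE), limma adjusted p = 0.027). *BIRC5* was 184, 189, 187 and 181 TPM in WT and 84.3, 141, 139.6, 77.7 and 150.3 TPM in A4KO (log2 fold change -0.69 ± 0.20 (SE), limma adjusted p = 0.0234). In these 5 genes all A4KO libraries lay below WT, with replicates 1 and 4 lowest.

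At the kinetochore, *CENPE*, the motor that aligns chromosomes, was 19.2, 18.0, 19.2 and 19.4 TPM in WT and 7.91, 12.0, 11.8, 8.73 and 12.8 TPM in A4KO (log2 fold change -0.80 ± 0.13 (SE), limma adjusted p = 0.00152). *CENPF* was 84.7, 84.9, 90.2 and 81.7 TPM in WT and 48.9, 62.4, 60.7, 46.8 and 65.0 TPM in A4KO (log2 fold change -0.59 ± 0.10 (SE), limma adjusted p = 0.00207). These had the lowest adjusted p of the 40 in CAKi-1. *CENPA*, the centromeric histone, and *BUB1*, a checkpoint kinase, fell too (-0.52 and -0.56), as did the motors *KIF11* (-0.77) and *KIF20A*. The latter was 65.0, 61.2, 61.9 and 49.5 TPM in WT and 28.3, 41.2, 39.3, 27.0 and 43.8 TPM in A4KO (log2 fold change -0.73 ± 0.16 (SE), limma adjusted p = 0.00595). *BUB1B*, the checkpoint protein BubR1 (-0.42), and *CDC20*, the activator of the anaphase-promoting complex (-0.45), did not pass. *FOXM1*, a transcription factor of the late cell cycle, was 96.6, 96.2, 101 and 89.2 TPM in WT and 35.9, 66.9, 71.0, 39.0 and 74.5 TPM in A4KO. It fell by 0.79 ± 0.22 (SE) on the log2 scale (limma adjusted p = 0.0204).

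**Figure D2:**
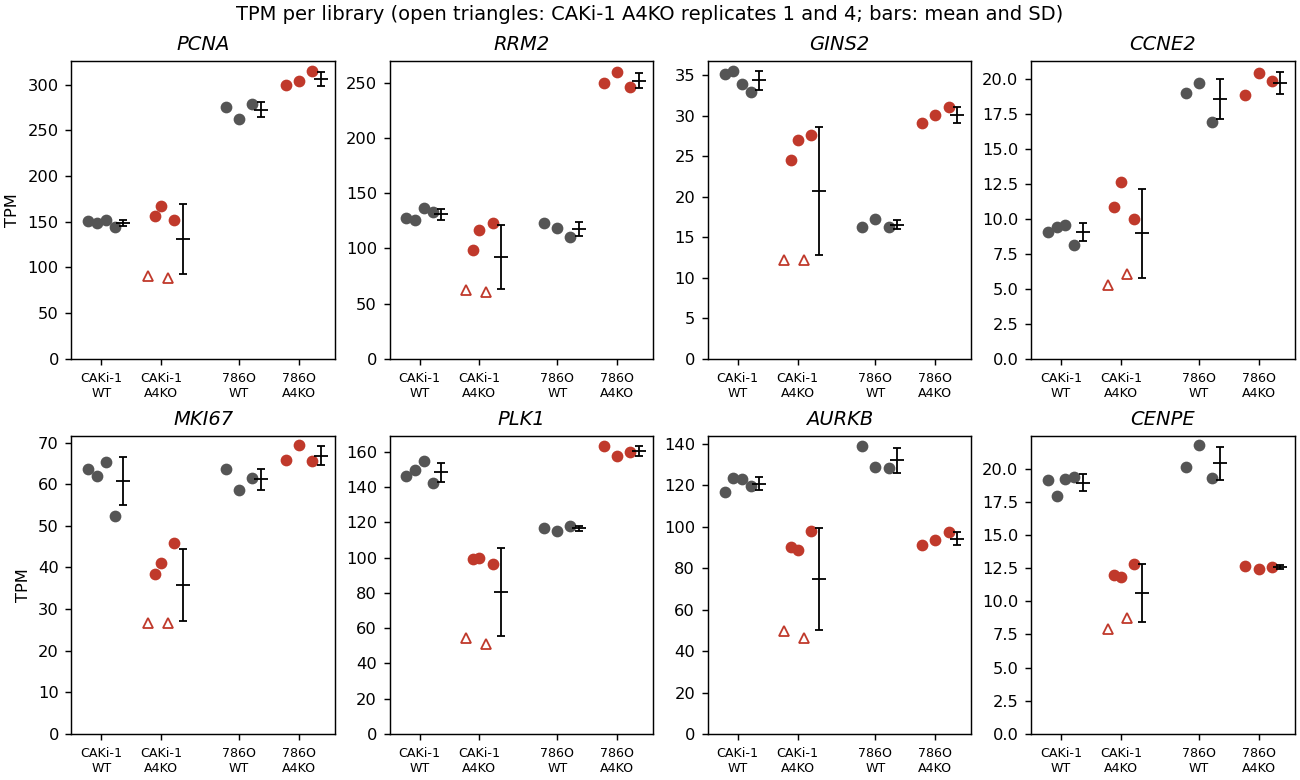
TPM of 8 genes in each library by line and genotype, with the mean and SD beside the points and a y axis from 0 in each panel. Open triangles are CAKi-1 A4KO replicates 1 and 4, which lie below the other 3 A4KO replicates in all 8 panels, and levels of the 2 lines come from tables normalized separately.

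The split among the CAKi-1 A4KO libraries ran through all 40 genes. Replicates 1 and 4 were both below replicates 2, 3 and 5 for 20 of 20 replication genes and 20 of 20 mitotic genes, whereas 26.1% of all genes had that order. The level in replicates 1 and 4, as a ratio to that in the other 3, had a median of 0.550 over the replication genes, with a range from 0.428 to 0.640. Over the mitotic genes the median was 0.604 and the range 0.520 to 0.763. Summed over the 20 replication genes, the libraries held 1964 to 1994 TPM in WT, 949.6 and 957 TPM in A4KO replicates 1 and 4, and 1645, 1760 and 1727 TPM in replicates 2, 3 and 5. The mitotic genes summed to 1914 to 2028 TPM in WT, to 929.97 and 907 TPM in replicates 1 and 4, and to 1503, 1539 and 1581 TPM in the others. *ANGPTL4* was higher in replicates 1 and 4 than in the other A4KO libraries, at 7.26 and 6.47 TPM against 2.87 to 2.90 TPM. No test was run between the 2 sets, since the split was known only from these data, and the labels give no batch or date for it.

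With replicates 1 and 4 left out, most mitotic genes remained lower, and the replication genes fell less and in smaller number. In that fit of 3 A4KO against 4 WT libraries, 16 mitotic genes fell and 0 rose, with a median log2 fold change of -0.40. Of the replication genes 9 fell and 3 rose, with a median of -0.18, against 22.2% of all genes that fell and 16.7% that rose. Those that rose were *MCM3* (0.21, limma adjusted p = 0.0139), *TYMS* (0.13, limma adjusted p = 0.0341) and *CCNE2* (0.27, limma adjusted p = 0.0404). This fit leaves out the 2 A4KO libraries that were lowest for all 40 genes, so its p-values are no separate evidence of a rise. With all libraries *MCM3*, *TYMS* and *CCNE2* were at -0.041, -0.22 and -0.073 and did not pass. For *MCM3*, *TYMS*, *CCNE2* and *PCNA* all 3 remaining A4KO libraries were above every WT library. The largest falls were those of *TK1* (-0.53, limma adjusted p = 2.76e-04) among replication genes and of *CENPE* (-0.59, limma adjusted p = 1.64e-04) and *PLK1* (-0.58, limma adjusted p = 1.27e-04) among mitotic genes. As a share of the WT mean, the replication genes had a median of 47.1% in replicates 1 and 4 and 88.3% in the other 3, and the mitotic genes 45.6% and 75.7%. By these medians the 2 groups were about equally low in replicates 1 and 4 and further apart in replicates 2, 3 and 5. In the latter their ranges overlapped, at 69.5% to 124% for replication genes and 64.5% to 109% for mitotic genes. The difference between the groups was not tested.

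In 786O the replication genes were mostly higher in A4KO cells and the mitotic genes moved in both directions. Of the 20 replication genes 13 rose, 3 fell and 4 did not pass, with a median log2 fold change of 0.17. Of the 20 mitotic genes 9 rose, 5 fell and 6 did not pass, with a median of 0.11, which was 0.0066 on neighbour-centred values. The median over all 16188 genes was -0.030, and 27.5% of all genes rose and 33.5% fell. Only *RRM2* passed with a log2 fold change of 1 or more in size, which 7.62% of all genes did. All A4KO values lay above all WT values for 13 replication and 11 mitotic genes, and below for 3 and 7, against 30.1% and 36.8% of all genes. With 3 against 3 libraries an exact two-sided permutation test cannot go below 0.10, so single genes rest on the limma fit. The libraries of each group lay close together, with a median coefficient of variation over the 40 genes of 3.07% in WT and 2.62% in A4KO.

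Ribonucleotide reductase had the largest change of the 40 in 786O. *RRM2* (chr2:10120698-10211725, hg38) was 123, 119 and 110.3 TPM in the WT libraries and 249.9, 259.8 and 247 TPM in the A4KO libraries. It rose by 1.10 ± 0.051 (SE) on the log2 scale (limma adjusted p = 1.04e-05), with no overlap. Its partner *RRM1* rose less, from 66.6, 62.0 and 59.2 TPM to 69.1, 71.8 and 74.5 TPM (log2 fold change 0.20 ± 0.056 (SE), limma adjusted p = 0.0228). *TK1* was 297, 282 and 295 TPM in WT and 356, 342 and 349 TPM in A4KO and rose by 0.26 ± 0.039 (SE) (limma adjusted p = 0.00144). *TYMS*, at 244, 232 and 229 TPM in WT and 243, 234 and 244 TPM in A4KO, overlapped between the groups and did not pass (limma adjusted p = 0.512).

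Most helicase genes of 786O rose, and a few fell by small amounts. *MCM2* was 69.8, 69.6 and 68.8 TPM in WT and 105, 103 and 104 TPM in A4KO, a rise of 0.58 ± 0.032 (SE) on the log2 scale (limma adjusted p = 1.96e-05). *GINS2* was 16.3, 17.2 and 16.2 TPM in WT and 29.1, 30.1 and 31.1 TPM in A4KO, a rise of 0.82 ± 0.043 (SE) (limma adjusted p = 1.55e-05). *MCM3*, *MCM6* and *MCM7* rose by 0.16, 0.16 and 0.29. *MCM5*, in contrast, was 102, 101 and 100.1 TPM in WT and 87.6, 89.7 and 91.0 TPM in A4KO and fell by 0.17 ± 0.034 (SE) (limma adjusted p = 0.00472). *MCM4* and *CDC45* fell as well, with log2 fold changes of -0.18 and -0.30. None of these 3 falls remained after centring on the neighbouring genes, which gave -0.057 (limma adjusted p = 0.441) for *MCM4*, 0.10 (limma adjusted p = 0.0518) for *MCM5* and 0.17 (limma adjusted p = 0.0199) for *CDC45*, whereas *MCM2*, *MCM3*, *MCM6*, *MCM7* and *GINS2* still rose. *MCM10* and *FEN1* did not pass, at -3.0e-05 and 0.0084. *FEN1* was 89.3, 87.8 and 87.7 TPM in WT and 86.5, 87.6 and 92.4 TPM in A4KO. The loaders *CDC6* (46.1, 48.1 and 46.8 TPM in WT, 57.0, 60.7 and 57.2 TPM in A4KO) and *CDT1* (34.4, 32.2 and 32.0 TPM in WT, 36.4, 37.6 and 38.2 TPM in A4KO) rose, by 0.30 ± 0.041 (SE) and 0.18 ± 0.044 (SE). Neither rise remained after centring, which gave 0.020 (limma adjusted p = 0.723) for *CDC6* and -0.26 (limma adjusted p = 0.00176) for *CDT1*.

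Of the G1/S regulators, *E2F1* was 32.6, 33.6 and 32.6 TPM in WT and 54.2, 53.6 and 55.8 TPM in A4KO, a rise of 0.71 ± 0.036 (SE) on the log2 scale (limma adjusted p = 1.37e-05). *CCNE1* was low in 786O, at 6.37, 7.14 and 6.95 TPM in WT, and 11.7, 12.2 and 10.5 TPM in A4KO (log2 fold change 0.67 ± 0.066 (SE), limma adjusted p = 2.16e-04). For both genes the groups did not overlap. *CCNE2* was 19.0, 19.8 and 17.0 TPM in WT and 18.9, 20.5 and 19.9 TPM in A4KO, overlapped between the groups and did not pass (log2 fold change 0.085 ± 0.065 (SE), limma adjusted p = 0.301). At the fork, the clamp gene *PCNA* was 276, 263 and 279 TPM in WT and 299.8, 304 and 314 TPM in A4KO and rose slightly (0.17 ± 0.041 (SE), limma adjusted p = 0.0125), with no overlap.

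Among the mitotic genes of 786O the largest changes were falls. *KIF20A*, a motor of the central spindle, was 80.2, 73.6 and 75.9 TPM in WT and 44.2, 48.4 and 46.5 TPM in A4KO (log2 fold change -0.71 ± 0.052 (SE), limma adjusted p = 5.98e-05). *CENPE* was 20.1, 21.8 and 19.3 TPM in WT and 12.7, 12.4 and 12.6 TPM in A4KO (log2 fold change -0.66 ± 0.050 (SE), limma adjusted p = 7.42e-05), and *AURKB* was 139, 129 and 128 TPM in WT and 91.3, 93.7 and 97.7 TPM in A4KO (log2 fold change -0.48 ± 0.049 (SE), limma adjusted p = 2.45e-04). For these 3 every A4KO library was below every WT library. *CDC20* (-0.39) and *BUB1* (-0.26) fell too. *PLK1* rose most, from 117, 115 and 118 TPM in WT to 163, 158 and 160.1 TPM in A4KO (log2 fold change 0.46 ± 0.034 (SE), limma adjusted p = 7.02e-05). *AURKA* was 111, 109.8 and 113 TPM in WT and 147, 141 and 145 TPM in A4KO (log2 fold change 0.37 ± 0.036 (SE), limma adjusted p = 2.16e-04), and *TPX2* was 140.2, 135 and 137 TPM in WT and 165, 168 and 175 TPM in A4KO (log2 fold change 0.30 ± 0.038 (SE), limma adjusted p = 7.14e-04). After centring on the neighbouring genes *PLK1*, *AURKA*, *TPX2*, *AURKB* and *BUB1* no longer passed, and both Aurora kinases were then slightly above 0, at 0.071 (limma adjusted p = 0.244) for *AURKA* and 0.049 (limma adjusted p = 0.333) for *AURKB*.

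The remaining mitotic genes of 786O changed little. *BIRC5* was 111, 114 and 108 TPM in WT and 131, 135 and 141 TPM in A4KO, and *FOXM1* was 103, 96.5 and 91.7 TPM in WT and 114, 113 and 115 TPM in A4KO. Both rose, by 0.28 ± 0.043 (SE) and 0.23 ± 0.050 (SE) on the log2 scale. *CDK1* (124, 124 and 121 TPM in WT, 143, 136 and 145 TPM in A4KO) and *TOP2A* (129, 125 and 124 TPM in WT, 141, 145 and 149 TPM in A4KO) rose by 0.20 and 0.19. *CENPF* (60.8, 59.7 and 56.5 TPM in WT, 63.8, 64.4 and 69.7 TPM in A4KO) and *CCNB2* rose by 0.16 and 0.20. Of these 6 genes *CDK1*, *TOP2A* and *CCNB2* no longer passed after centring. *MKI67*, at 63.6, 58.6 and 61.5 TPM in WT and 65.7, 69.4 and 65.5 TPM in A4KO, was just short of the threshold (limma adjusted p = 0.0565) although its groups did not overlap. *CCNB1*, at 152, 158 and 158 TPM in WT and 143, 147 and 150.5 TPM in A4KO, had a log2 fold change of -0.085 ± 0.039 (SE) (limma adjusted p = 0.103). *CCNA2*, *BUB1B*, *CENPA* and *KIF11* did not pass, at -0.068, -0.13, 0.010 and 0.091.

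**Figure D3:**
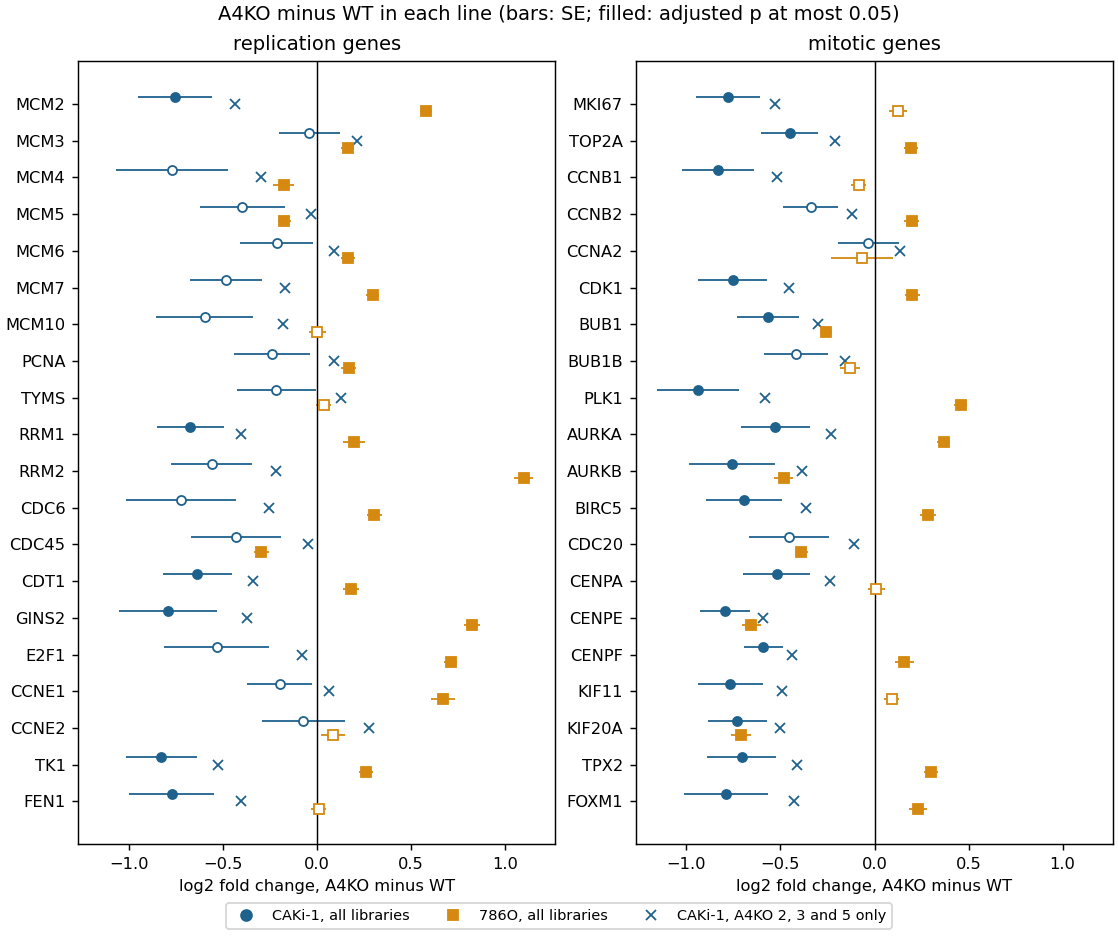
Log2 fold change, A4KO minus WT, with its SE for the 40 genes in CAKi-1 (circles) and 786O (squares), filled where the limma adjusted p is at most 0.05, and crosses for CAKi-1 with A4KO replicates 2, 3 and 5 only. CAKi-1 circles lie left of 0 for all 40 genes, with medians of -0.55 and -0.70, and 786O squares spread from -0.71 for KIF20A to 1.10 for RRM2.

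In 786O the genes next door to a member often had a difference of the same sign, about as often as for all genes. For each gene, the median A4KO minus WT difference of the 25 expressed genes on each side along the chromosome was computed, and it ranged from -0.53 to 0.44 on the log2 scale over the 40 genes. In CAKi-1 it ranged from -0.29 to 0.19. Of the 30 genes that passed in 786O, 22 had neighbours shifted in the same direction, 10 of 16 replication genes and 12 of 14 mitotic genes, and so did 72.0% of the 9848 placed genes that passed in the line. After the neighbours' deviation was taken off each library, 17 of the 30 passed in the same direction, 11 no longer passed and 2 passed in the opposite direction, whereas over all genes that passed 68.3%, 27.5% and 4.15% did so. Those that no longer passed were *MCM4*, *MCM5*, *CDC6*, *TOP2A*, *CCNB2*, *CDK1*, *BUB1*, *PLK1*, *AURKA*, *AURKB* and *TPX2*. The mitotic genes that rose went from 9 to 3 in this setting, whereas the replication genes that rose went from 13 to 14, and 29.2% of all genes rose and 29.9% fell.

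*AURKB* lay among genes lower by 0.53, and its own difference from them was 0.049 (limma adjusted p = 0.333). *PLK1* lay among genes higher by 0.37, which left 0.091 (limma adjusted p = 0.115), and *AURKA* among genes higher by 0.30, which left 0.071 (limma adjusted p = 0.244). In both Aurora kinases the sign was that of the genes around them. *CDC45* and *CDT1* passed in the opposite direction. *CDC45* was -0.30 with its neighbours at -0.47 and was 0.17 after centring (limma adjusted p = 0.0199), and *CDT1* was 0.18 with its neighbours at 0.44 and was -0.26 after centring (limma adjusted p = 0.00176). Other genes stood clear of their neighbours. *RRM2* kept 0.89 (limma adjusted p = 3.69e-05), *KIF20A* -0.83 (limma adjusted p = 4.41e-05) and *CENPE* -0.42 (limma adjusted p = 4.37e-04). *CCNE1* rose among genes that were lower by 0.44, so that its centred value, 1.11, was above that of *RRM2* (limma adjusted p = 6.12e-05). *RRM1* and *PCNA* also rose among lower neighbours, with centred values of 0.55 and 0.51. The cause of the shared shifts was not tested.

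**Figure D4:**
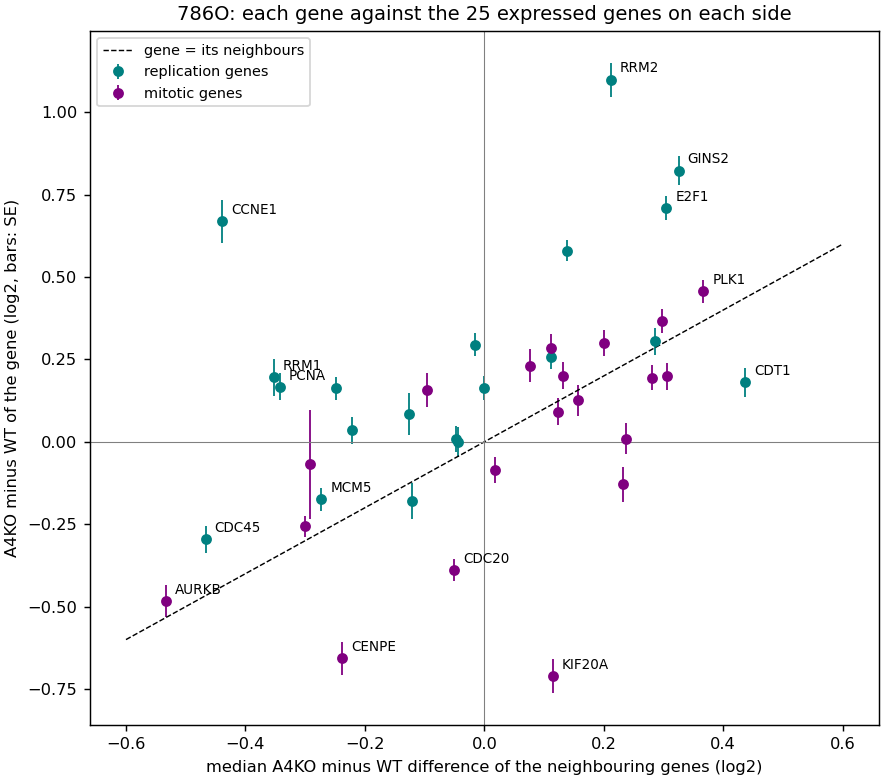
A4KO minus WT difference of each of the 40 genes in 786O (y axis, log2, with SE) against the median difference of the 25 expressed genes on each side (x axis, log2), with a dashed line where both are equal. PLK1 and AURKB lie near the line at 0.37 and -0.53 on the x axis, and RRM2, CCNE1 and KIF20A lie far from it.

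The difference between the lines was tested itself, as the 786O effect minus the CAKi-1 effect over the 15247 genes in both tables. The fit used a single residual variance per gene for all libraries. The median coefficient of variation over the 40 genes was 27.8% in CAKi-1 A4KO but 2.62% in 786O A4KO. By the study's methods the controls also differed, parental cells for CAKi-1 and pooled clones for 786O, which this contrast cannot separate from the line. It passed for 11 replication genes and 12 mitotic genes, all with the higher effect in 786O, and for 0 in the other direction. Of all genes 26.3% passed as higher in 786O and 28.8% as lower. The median difference was 0.78 over the replication genes, 0.70 over the mitotic genes and -0.029 over all genes. The largest differences were those of *RRM2*, 1.66 ± 0.28 (SE, limma adjusted p = 2.08e-04), *GINS2*, 1.62 ± 0.34 (SE, limma adjusted p = 0.00108), *PLK1*, 1.39 ± 0.28 (SE, limma adjusted p = 8.56e-04), and *MCM2*, 1.34 ± 0.26 (SE, limma adjusted p = 5.67e-04). Passing in both lines with opposite signs were 13 genes, namely *MCM2*, *RRM1*, *CDT1*, *GINS2* and *TK1* of the replication genes and *TOP2A*, *CDK1*, *PLK1*, *AURKA*, *BIRC5*, *CENPF*, *TPX2* and *FOXM1* of the mitotic genes. All 13 were lower in CAKi-1 and higher in 786O, as were 8.33% of all genes in both tables. On neighbour-centred values 4 of the 13, *MCM2*, *TK1*, *BIRC5* and *CENPF*, passed in both lines with opposite signs, and no other of the 40 did, against 6.42% of all genes. Of these, *TK1* (chr17:78174091-78187233) and *BIRC5* (chr17:78214186-78225636) lie close together, with a neighbour shift of 0.11 each in 786O, and are not separate regions. Falling in both lines were 4 of the 40 genes, *BUB1*, *AURKB*, *CENPE* and *KIF20A*, against 7.08% of all genes. Of these, *CENPE* and *KIF20A* also fell in both lines on neighbour-centred values, joined by *BUB1B*, *CDC20* and *CENPA*, against 5.41% of all genes, whereas *BUB1* and *AURKB* were at 0.044 (limma adjusted p = 0.327) and 0.049 (limma adjusted p = 0.333) in 786O. For *CENPE* and *KIF20A* the difference between the lines was 0.14 ± 0.17 (SE, limma adjusted p = 0.522) and 0.019 ± 0.21 (SE, limma adjusted p = 0.949). With only A4KO replicates 2, 3 and 5 of CAKi-1, 11 replication and 13 mitotic genes passed as higher in 786O and 1 of each, *CDC45* and *CDC20*, as lower, against 28.9% and 30.6% of all genes. All 23 genes that passed with all libraries also passed in this setting, with differences between 0.32 and 1.32. With neighbour-centred values in both lines 9 replication and 9 mitotic genes passed, all as higher in 786O, against 24.5% of all genes (26.6% passed as lower). Of the 23 genes 15 passed again in this setting and 8 did not, namely *CDC6*, *CDT1*, *FEN1*, *MKI67*, *TOP2A*, *CCNB2*, *AURKA* and *KIF11*, while *PCNA*, *BUB1* and *AURKB* passed in this setting only.

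The WT levels of the 2 lines can only be set side by side, since their tables were normalized separately and levels were not tested across them. In WT cells the 20 replication genes together took 0.202% to 0.207% of the summed TPM in CAKi-1 and 0.201% to 0.208% in 786O. The mitotic genes took 0.197% to 0.211% and 0.198% to 0.204%. In A4KO cells the replication genes took 0.0975% to 0.181% in CAKi-1 and 0.239% to 0.244% in 786O, and the mitotic genes 0.0933% to 0.162% and 0.203% to 0.208%. Of the 40 genes *TK1* was highest in CAKi-1 WT, at 499 ± 7.77 TPM (SD, n = 4), and *CCNE2* lowest at 9.06 ± 0.657 TPM. In 786O WT *TK1* was also highest, at 291 ± 7.95 TPM (SD, n = 3), and *CCNE1* lowest at 6.82 ± 0.398 TPM.

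Other genes of the same machinery were counted on 4 further lists. Of 45 other licensing and replisome genes, 14 fell and 0 rose in CAKi-1, and 15 fell and 14 rose in 786O. These are 31.1% lower in CAKi-1, where 21.1% of all genes fell, and 33.3% lower and 31.1% higher in 786O, close to the 33.5% and 27.5% of all genes. *ORC6*, an origin recognition subunit, was the only one that passed with a log2 fold change of 1 or more in size, here named called, in CAKi-1, from 56.8, 56.9, 57.1 and 57.3 TPM in WT to 19.4, 35.2, 38.4, 17.5 and 37.0 TPM in A4KO (log2 fold change -1.0003 ± 0.24 (SE), limma adjusted p = 0.0091). *WDHD1*, a replisome scaffold, was the only one called in 786O, with 24.0, 26.6 and 25.2 TPM in WT and 9.52, 10.5 and 11.0 TPM in A4KO (log2 fold change -1.21 ± 0.064 (SE)), -0.33 after centring on its neighbours. Of 53 other spindle, kinetochore and cytokinesis genes, 33 fell (62.3%) and 0 rose in CAKi-1, and 23 fell (43.4%) and 16 rose (30.2%) in 786O. The genes called here were *CDCA3* in CAKi-1 (-1.005) and *KIF4A* (-1.14) and *DLGAP5* (-1.05) in 786O, all without centring on their neighbours. Called in either direction were 3.33% of all genes in CAKi-1 and 7.62% in 786O. Medians of the 2 lists were -0.34 and -0.57 in CAKi-1 and 0.037 and -0.084 in 786O, against -0.0078 and -0.030 over all genes. The lists were not tested against each other or against the 40 genes.

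Among cyclins, cyclin-dependent kinases and their regulators, 20 of 23 were in each table, 10 of which fell (50.0%, against 21.1% of all genes) and 0 rose in CAKi-1, and 7 fell (35.0%, against 33.5%) and 9 rose (45.0%, against 27.5%) in 786O. *CCND1*, cyclin D1, which drives entry into the cycle, was 131, 153, 139 and 129.6 TPM in CAKi-1 WT and 30.6, 39.7, 45.3, 31.6 and 47.5 TPM in A4KO (log2 fold change -1.82 ± 0.14 (SE), limma adjusted p = 2.52e-05). Without replicates 1 and 4 the log2 fold change was -1.62, against medians of -0.18 over the replication genes and -0.40 over the mitotic genes. In 786O *CDKN1A*, the cyclin-dependent kinase inhibitor p21, was 61.1, 58.2 and 58.8 TPM in WT and 218, 220.1 and 223 TPM in A4KO (log2 fold change 1.87 ± 0.036 (SE), limma adjusted p = 5.10e-07). *CDKN1C*, the inhibitor p57, moved the other way, with 22.9, 22.7 and 22.3 TPM in WT and 1.46, 1.56 and 1.38 TPM in A4KO (log2 fold change -3.26 ± 0.041 (SE), limma adjusted p = 1.15e-07). *CDKN3* was also called in 786O, at -1.09 and -0.22 after centring. Of 18 E2F, RB and MuvB genes, 6 fell (33.3%) and 1 rose (5.56%, against 17.9% of all genes) in CAKi-1, and 5 fell (27.8%) and 10 rose (55.6%) in 786O. *E2F7*, a repressor of E2F targets, was the only one called, at 14.4, 15.2, 16.6 and 14.4 TPM in CAKi-1 WT and 3.63, 6.77, 8.29, 2.70 and 7.98 TPM in A4KO (log2 fold change -1.32 ± 0.27 (SE), limma adjusted p = 0.00447).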

How the data were processed

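The authors sequenced poly(A) RNA as paired-end reads of 150 bases, 3000000 reads per sample by the labels, and pseudoaligned it to hg38 with Kallisto. The deposited values are gene-level TPM, 1 table per line, each library summing to between 961437 and 973887, a unit inferred from the values. The sources do not say how transcripts were summed or by what rule genes were dropped. TPM keeps no depth, so counting error is unknown and no count model applies. There were 0 values at exactly 0 and 0 columns of samples outside the series.

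The members and all lists were chosen with earlier results of these data known. From the deposited TPM, log2(TPM + 1) was compared per line with limma 3.58.1 in R 4.3.3 (lmFit and eBayes, two-sided, no filter), and p-values were adjusted by Benjamini-Hochberg within each whole table. Fold changes on this scale understate the change of low genes. The effect difference between the lines was a limma contrast over the genes in both tables. The limma step was run on simulated data with independent values and the same spread in both genotypes. The wider spread of the CAKi-1 A4KO libraries was not simulated, so that run does not bear on it. No set test was run. Neighbour-centred values subtract, library by library, the median deviation of the expressed genes around it, 25 upstream and 25 downstream (GENCODE release 44), which had positions for 99.9% of the genes of each line. Values in every library are given for 16 anchor genes, the 3 largest passing changes per group and line, and genes that passed in both lines with opposite signs. Other pathway genes are named only when they passed with a log2 fold change of 1 or more in size, and others by range. Alternatives were a pseudocount of 0.1, a filter at a mean of 1 TPM, quantile normalization, median ratio scaling, eBayes with trend and robust options, a replicate block, leaving out single libraries, A4KO replicates 2, 3 and 5 only, neighbour-centred values and the stricter call. The contrast between the lines on neighbour-centred values was added after seeing the data. The deposited files held no other comparison that was used here.

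Strand use in counting is not given in the sources used here, and reads that fit several transcripts were shared among them by the pseudoaligner. In GENCODE, 8 of the 40 genes have an exon overlapped by a protein-coding gene on the opposite strand, namely *MCM7*, *TYMS*, *GINS2*, *CCNE2*, *CCNA2*, *PLK1*, *KIF20A* and *FOXM1*, and 10 have a pseudogene of their own name, *PCNA*, *RRM2* and *AURKA* among them, so their values are less certain. Promoter windows and their coordinates are from RefSeq (GRCh38.p14).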

Additional observations from a re-analysis of the deposited data

Results flagged for a closer look

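In 23 of the 40 genes the A4KO minus WT difference on the log2 scale was higher in 786O than in CAKi-1 by the limma contrast between the lines, with adjusted p at most 0.05 over the 15247 genes in both tables. The differences were *MCM2* 1.34, *MCM7* 0.78, *RRM1* 0.87, *RRM2* 1.66, *CDC6* 1.03, *CDT1* 0.82, *GINS2* 1.62, *E2F1* 1.24, *CCNE1* 0.87, *TK1* 1.09 and *FEN1* 0.78 for the replication genes and *MKI67* 0.91, *TOP2A* 0.65, *CCNB1* 0.75, *CCNB2* 0.54, *CDK1* 0.95, *PLK1* 1.39, *AURKA* 0.89, *BIRC5* 0.98, *CENPF* 0.75, *KIF11* 0.86, *TPX2* 1.01 and *FOXM1* 1.02 for the mitotic genes. All 15 libraries entered this contrast, CAKi-1 A4KO replicates 1 and 4 included. With those left out, the 23 differences passed again and ranged from 0.32 for *CCNB2* to 1.32 for *RRM2*. On neighbour-centred values in both lines 15 of the 23 passed and 8 did not, namely *CDC6*, *CDT1*, *FEN1*, *MKI67*, *TOP2A*, *CCNB2*, *AURKA* and *KIF11*, whose centred differences lay between 0.10 for *CDT1* and 0.93 for *CDC6*.

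Among 82 groups of 4 or 5 CAKi-1 libraries examined for a library far from the others, 2 had one, and chance gives about 1 in 20. *MCM2* was 101 TPM in CAKi-1 WT replicate 2 against 98.9 to 99.1 TPM in the other WT libraries. *CENPE* was 18.0 TPM in the same library against 19.2 to 19.4 TPM. Both gaps were small beside the A4KO minus WT difference of the gene.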

How the results depend on the processing

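Counts of genes that passed moved by over 1.5 times in few settings. Neighbour-centred values gave 3 replication genes lower in CAKi-1, and in 786O 1 replication gene lower and 3 mitotic genes higher. The stricter call, which by construction keeps only log2 fold changes of 1 or more in size, left 0 replication and 0 mitotic genes lower in CAKi-1, 0 replication genes lower, 1 higher, 0 mitotic genes lower and 0 higher in 786O. With A4KO replicates 2, 3 and 5 only, 3 replication genes were higher in CAKi-1, and the contrast between the lines gave 1 replication and 1 mitotic gene lower in 786O. Leaving out each library gave 3 to 10 replication genes lower and 9 to 17 mitotic genes lower in CAKi-1, fewest without WT replicate 3 and most without A4KO replicate 5. In 786O it gave 12 to 13 replication genes higher and 2 to 3 lower, and 8 to 10 mitotic genes higher and 5 to 6 lower, and in the contrast 9 to 11 replication and 11 to 13 mitotic genes. The cause was not tested, and the other settings kept these counts within 1.5 times. Of the medians, that of the mitotic genes in 786O moved from 0.11 to 0.0066 on neighbour-centred values, to 0.13 with quantile normalization and to 0.15 with median ratio scaling, and was 0.095 to 0.13 when single libraries were left out. That of the replication genes in 786O was 0.23 on neighbour-centred values and 0.21 with median ratio scaling. With A4KO replicates 2, 3 and 5 only, the CAKi-1 medians were -0.18 and -0.40.

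The replicate numbers did not pair the libraries. Correlations of deviations between same-numbered WT and A4KO libraries were -0.093, 0.13, -0.074 and 0.18 in CAKi-1 and -0.11, -0.0024 and -0.081 in 786O. With the replicate block, 9 replication and 17 mitotic genes were lower in CAKi-1, 12 replication genes rose and 2 fell and 8 mitotic genes rose and 5 fell in 786O, and 12 replication and 13 mitotic genes passed between the lines.

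Single genes changed sign in these settings. In CAKi-1 none of them had passed with all libraries, whereas in 786O 7 of the 12 that turned on neighbour-centred values had, namely *MCM5*, *CDC45*, *CDT1*, *TOP2A*, *CCNB2*, *BUB1* and *AURKB*. In CAKi-1 with A4KO replicates 2, 3 and 5 only, values were *MCM3* 0.21, *MCM6* 0.090, *PCNA* 0.088, *TYMS* 0.13, *CCNE1* 0.065, *CCNE2* 0.27 and *CCNA2* 0.13. Quantile normalization gave *MCM3* 0.052 and neighbour-centred values *CCNA2* 0.063. In 786O, neighbour-centred values gave *MCM5* 0.10, *MCM10* 0.044, *CDC45* 0.17, *CDT1* -0.26, *MKI67* -0.030, *TOP2A* -0.085, *CCNB2* -0.11, *CCNA2* 0.22, *BUB1* 0.044, *AURKB* 0.049, *CENPA* -0.23 and *KIF11* -0.031, quantile normalization gave *MCM10* 0.046 and median ratio scaling *MCM10* 0.037. Leaving out each library gave *MCM3* -0.12 to 0.055, *CCNE2* -0.20 to 0.079 and *CCNA2* -0.11 to 0.088 in CAKi-1, and *MCM10* -0.026 to 0.037, *FEN1* -0.020 to 0.027, *CCNA2* -0.20 to 0.12 and *CENPA* -0.013 to 0.045 in 786O. Depth limits are unknown, since TPM keeps no read counts, and 3 to 5 libraries per group limit single genes.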
